A study of Bos taurus with 6 samples.

Results

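In small RNA libraries of fetal bovine serum (FBS), the serum of unborn calves added to culture media, miR-1246, both arms of miR-423, both arms of miR-574 and the mouse name miR-5119 were followed through the fractions of an ultracentrifugation (UC). They were selected on the RPM values of these same libraries, which placed their most abundant members further towards the supernatant than most miRNAs. They make up 10 of the 897 rows of the miRNA tables, that is 5 of the 502 human names and 5 of the 395 mouse names. All 10 are listed in the tables, and 8 passed a filter that asks for 1 RPM or more in 3 or more of the 6 libraries. The others, miR-574-3p under its human and its mouse name, did not. The choice rested on the difference between pellets and supernatants, so that difference is described here and not tested.

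Each pellet and each supernatant came from bovine serum spun at 100000 g and 4 °C for 24 h, with no other treatment named. The 3 pellets hold extracellular vesicles (EVs) together with other heavy particles, and the 3 supernatants hold what stayed in solution, such as RNA bound to protein (RNPs). Only the supernatants were concentrated on 3 kDa filters before RNA isolation, so the filter and the fraction cannot be told apart. The study's text speaks of 3 different batches of FBS and a legend of aliquots, so the p-values below measure the spread between these libraries, which may be technical. Each library, made from 60 ng of RNA, is given as reads per 1000000 mapped reads (RPM), mapped once to the human and once to the mouse genome. RPM are shares of a library, so more RNA of other kinds in a fraction and fewer copies of a miRNA cannot be told apart. Mapped reads, estimated from the smallest steps between the values, came to between 867423 (pellet 3) and 6660805 (pellet 1) for the human genome and between 954636 (pellet 3) and 7339827 (pellet 1) for the mouse genome. In the human mapping 1 read thus stood for 0.150 RPM in pellet 1, but for 1.15 RPM in pellet 3, so rare members are poorly measured in pellet 3. Many values lie between whole reads, so no counting interval is given.

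A miRNA is cut from a hairpin whose strands give a 5p and a 3p arm, and usually one arm is loaded into an Argonaute protein while the other is degraded. Loaded miRNAs repress mRNAs that pair with their seed, and in blood they travel inside vesicles or bound to proteins outside them. miR-1246 is an unusual case, because its sequence also occurs in the U2 snRNA of the spliceosome, so reads under this name can be U2 fragments. The human miR-423 hairpin lies in an intron of NSRP1, a gene of a splicing regulator, and miR-423-5p is known from human blood as a marker studied in heart failure. miR-574-5p is rich in G and U and, in humans, is known as a ligand of Toll-like receptors. Of the 4 miRNA numbers, 3 have a gene in the cattle assembly ARS-UCD2.0, namely MIR1246, MIR423 and MIR574, and for miR-5119 none was found in the table of this assembly. Cattle MIR423 lies within NSRP1, as in humans. Cattle MIR574 lies within no gene of that table and on another chromosome than FAM114A1, the host gene of human miR-574.

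miR-1246 was the most abundant of these miRNAs by far and ranked at place 2 in each of the 6 libraries mapped to the human genome, behind the liver miRNA miR-122-5p at place 1. Its level was 17633, 13267 and 6946 RPM in pellets 1, 2 and 3, against 15082, 19230 and 18360 RPM in supernatants 1, 2 and 3. Pellet 3 was the lowest library, and the fractions overlapped because pellet 1 lay above supernatant 1. The mean level was 12615 ± 5373 RPM in the pellets, against 17557 ± 2187 RPM in the supernatants (SD, n = 3 each). The difference of the mean log2(RPM + 1), pellet minus supernatant, was -0.57, and without pellet 3 it was -0.19. The level rested on about 6025 reads in pellet 3 and about 117448 reads in pellet 1, so depth does not limit this row. miR-1246 was not analysed in the mouse mapping.

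As a share of the listed miRNA reads, miR-1246 separated the fractions. It took 13.7%, 17.2% and 11.0% of them in pellets 1, 2 and 3, against 25.8%, 34.9% and 35.2% in supernatants 1, 2 and 3. Every pellet lay below every supernatant, and the mean share was 0.436 times as high in the pellets (13.9% ± 3.10) as in the supernatants (32.0% ± 5.36, SD, n = 3 each). Non-overlapping shares with the pellets lower occurred in 1.31% of the 153 human miRNAs that passed the filter. The total contains miR-1246, so its large share in the supernatants lowers the shares of the others there. In the mouse mapping, where miR-1246 does not enter the total, it was 5.59% of the 143 miRNAs. For each read of miR-1246 there were 5.27, 3.91 and 7.14 reads of miR-122-5p in pellets 1, 2 and 3 and 2.70, 1.74 and 1.69 reads in supernatants 1, 2 and 3. In this ratio within libraries, which no scaling can move, the fractions did not overlap. As miR-122-5p took 72.4% of the listed miRNA reads in the pellets and 63.3% in the supernatants on average, the ratio largely restates the share. It is no separate evidence, and it was not computed for other miRNAs.

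The snRNA class, which includes U2, was smaller than the miR-1246 row in every library. It held 7997, 4196 and 3993 RPM in pellets 1, 2 and 3 and 5944, 5055 and 4684 RPM in supernatants 1, 2 and 3 of the human mapping. Reads of miR-1246 were 2.205, 3.16 and 1.74 times as many as those of the whole snRNA class in the pellets, and 2.54, 3.80 and 3.92 times as many in the supernatants. Pellet 2 lay above supernatant 1 in this ratio, so the fractions overlapped. The class mean was 5395 ± 2255 RPM in the pellets, against 5228 ± 647 RPM in the supernatants, and in the mouse mapping it was 7235 ± 2994 RPM in the pellets, against 7063 ± 238 RPM in the supernatants (SD, n = 3 each). miR-1290, another name whose sequence overlaps U2, was at 0.168, 0.0750 and 0 RPM in the pellets, against 0.840, 0.353 and 0 RPM in the supernatants. These values stand for a few reads at most. The values do not show whether a read counted as miR-1246 is also counted in the snRNA class, so the ratios do not compare miR-1246 with U2 fragments. How many of the miR-1246 reads stem from U2 was not tested.

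**Figure D1:**
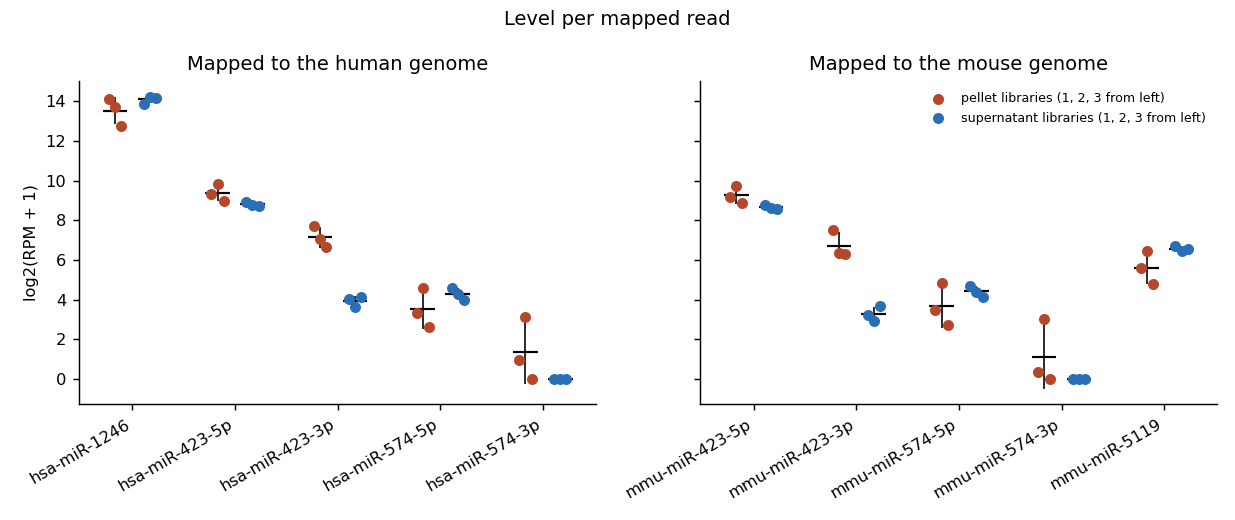
Level of each member as log2(RPM + 1), left panel for the human and right panel for the mouse genome, with 1 point per library (pellets left, supernatants right), the mean as a bar and the SD as a line (n = 3). miR-423-3p has all pellets above all supernatants, miR-1246, miR-574-5p and mmu-miR-5119 overlap, and miR-574-3p is near 0 in all supernatants.

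miR-423-5p did not lean towards the supernatant per mapped read, against the description by which it was grouped. Under its human name its level was 639, 901 and 504 RPM in pellets 1, 2 and 3, against 484, 433 and 422 RPM in supernatants 1, 2 and 3. Every pellet lay above every supernatant, although pellet 3 exceeded supernatant 1 only slightly. The mean was 681 ± 202 RPM in the pellets, against 447 ± 33.0 RPM in the supernatants (SD, n = 3 each), with a log2 difference of 0.57 (0.35 without pellet 2). In the mouse mapping it was at 585, 861 and 471 RPM in the pellets, against 440, 386 and 380 RPM in the supernatants, again without overlap and with a log2 difference of 0.62 (0.39 without pellet 2). Levels higher in the pellets without overlap were found in 66.7% of the 153 human and 72% of the 143 mouse miRNAs.

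Among miRNA reads, miR-423-5p took nearly the same share in both fractions under its human name. The shares were 0.496%, 1.16% and 0.796% in pellets 1, 2 and 3 and 0.828%, 0.787% and 0.810% in supernatants 1, 2 and 3. The supernatants all fell inside the range of the pellets. The mean share was 0.819% ± 0.335 in the pellets, against 0.808% ± 0.0207 in the supernatants (SD, n = 3 each). In the mouse mapping, where miR-1246 does not enter the total, the shares were 0.426%, 1.04% and 0.630% in the pellets, against 0.814%, 0.918% and 0.943% in the supernatants, and overlapped likewise. When miR-122-5p and miR-1246 were set aside, miR-423-5p held 3.46%, 7.34% and 7.45% of the remaining human miRNA reads in the pellets, against 18.6%, 18.5% and 15.2% in the supernatants. On that base every pellet lay below every supernatant, as in 11.3% of the 151 human miRNAs left. miR-423-5p was at place 3 in each supernatant and at places 6, 4 and 4 in pellets 1, 2 and 3 of the human mapping.

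The 3p arm of the same hairpin was found mostly in the pellets. hsa-miR-423-3p was at 208, 134 and 99.2 RPM in pellets 1, 2 and 3, against 15.4, 11.2 and 16.6 RPM in supernatants 1, 2 and 3. The lowest pellet stood above the highest supernatant, as in 66.7% of the human miRNAs, and the mean was 10.2 times as high in the pellets (147 ± 55.4 RPM) as in the supernatants (14.4 ± 2.80 RPM, SD, n = 3 each). The log2 difference was 3.22. mmu-miR-423-3p was at 183, 80.8 and 77.6 RPM in the pellets, against 8.50, 6.64 and 11.7 RPM in the supernatants, with a log2 difference of 3.44 and no overlap, as in 72% of the mouse miRNAs. Unlike the 5p arm, the 3p arm also kept its separation as a share of miRNA reads, at 0.164% ± 0.00863 in the pellets, against 0.0262% ± 0.00570 in the supernatants for the human name (SD, n = 3 each). Shares higher in the pellets without overlap occurred in 49.7% of the human miRNAs. Under the mouse name the shares were 0.112% ± 0.0188 in the pellets, against 0.0202% ± 0.00764 in the supernatants, and shares higher in the pellets without overlap occurred in 37.1% of the mouse miRNAs. The supernatant values rested on about 43.0 to 82.7 reads in the human mapping.

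**Figure D2:**
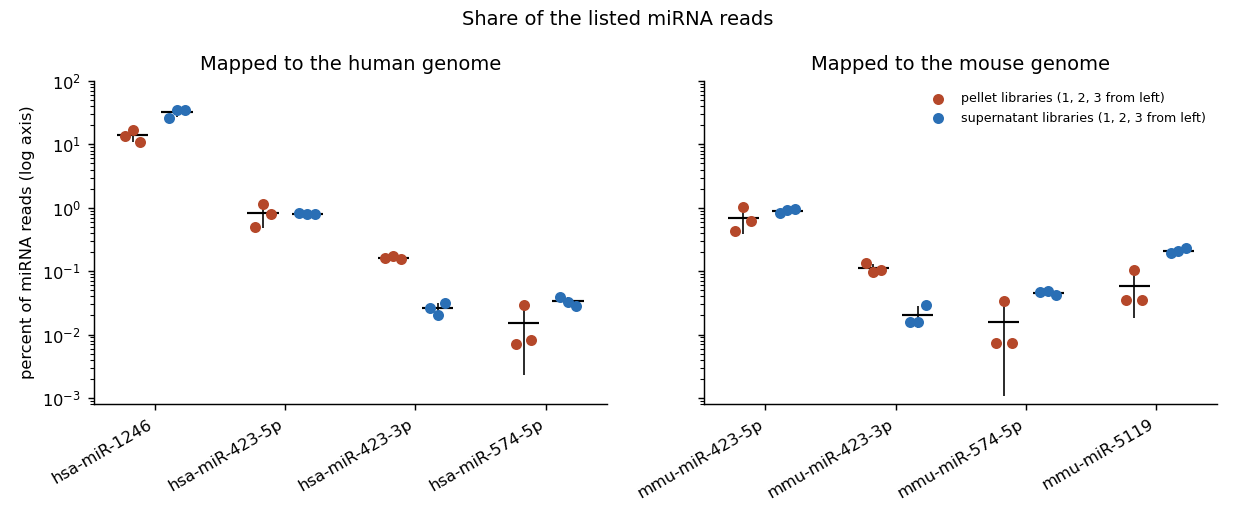
Percent of the listed miRNA reads on a log axis for the members that passed the filter, 1 point per library (pellets left, supernatants right), with mean and SD (n = 3). The miR-1246 shares of the pellets (11.0% to 17.2%) lie below those of the supernatants (25.8% to 35.2%), whereas hsa-miR-423-5p overlaps, with means of 0.819% in the pellets and 0.808% in the supernatants.

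The arms of miR-423 were thus found in unequal ratios in the fractions. For each read of the 3p arm there were 3.08, 6.72 and 5.08 reads of the 5p arm in pellets 1, 2 and 3, against 31.5, 38.6 and 25.5 reads in supernatants 1, 2 and 3 of the human mapping. The ratio of the highest pellet stayed well below that of the lowest supernatant. The rows were chosen on the difference between the fractions, so this is a description, and other pairs of arms were not compared. The 3p arm made up 18.0% ± 5.93 of the miR-423 reads in the pellets, against 3.13% ± 0.626 in the supernatants (SD, n = 3 each). Under the mouse names the 5p to 3p ratio was 3.20, 10.7 and 6.07 in the pellets, against 51.8, 58.1 and 32.5 in the supernatants. As both rows come from 1 library, neither the depth nor the scaling enters this ratio. The mouse rows come from the same libraries and are no second sample.

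The 5p arm of miR-423 was above the 3p arm in 6 of 6 libraries, with a mean log2 difference of 3.55 ± 1.50 for the human names and 3.96 ± 1.66 for the mouse names (SD, n = 6). Abundant 5p rows led the choice of these miRNAs, so this too is a description. For miR-574 no such ratio is given, because its 3p arm is listed at 0 in 3 of the 6 libraries.

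**Figure D3:**
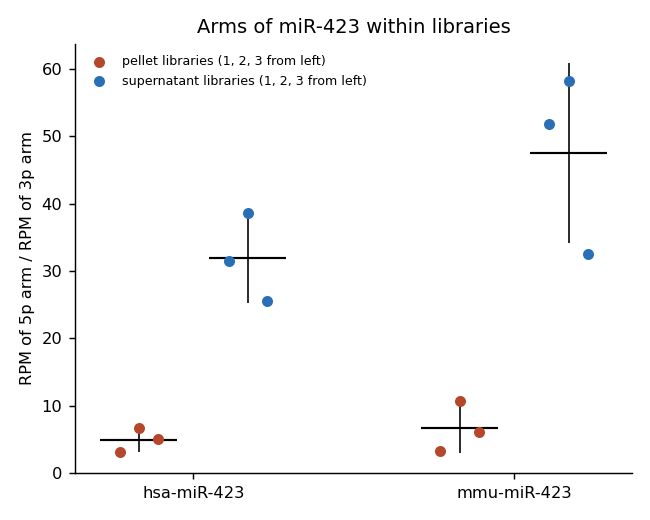
RPM of the 5p arm of miR-423 divided by RPM of its 3p arm in each library, for the human and the mouse names (pellets left, supernatants right, with mean and SD, n = 3). The pellets lie between 3.08 and 10.7 and the supernatants between 25.5 and 58.1.

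miR-574-5p was a rare miRNA and its level varied widely among the pellets. hsa-miR-574-5p was at 9.20, 23.0 and 5.20 RPM in pellets 1, 2 and 3, against 22.8, 18.2 and 14.7 RPM in supernatants 1, 2 and 3. Pellets 1 and 3 lay below all supernatants, and pellet 2 lay above them, so the fractions overlapped. The mean was 12.5 ± 9.33 RPM in the pellets, against 18.6 ± 4.06 RPM in the supernatants (SD, n = 3 each). The log2 difference was -0.75, with -1.28 without pellet 2 and -0.30 without pellet 3. The value of pellet 3 rested on about 4.51 reads. mmu-miR-574-5p showed the same order, at 10.2, 27.5 and 5.53 RPM in the pellets, against 25.3, 20.2 and 16.8 RPM in the supernatants, with a log2 difference of -0.75 (-1.33 without pellet 2 and -0.27 without pellet 3). The shares of human miRNA reads overlapped as well, at 0.00713%, 0.0297% and 0.00821% in pellets 1, 2 and 3, against 0.0389%, 0.0331% and 0.0281% in supernatants 1, 2 and 3. The share of mmu-miR-574-5p among mouse miRNA reads was 0.0161% ± 0.0150 in the pellets, against 0.0456% ± 0.00330 in the supernatants (SD, n = 3 each). On this scale no pellet reached a supernatant, which was the case with the pellets lower in 5.59% of the 143 mouse miRNAs.

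miR-574-3p was barely detected. hsa-miR-574-3p was at 0.931 and 7.82 RPM in pellets 1 and 2 and was listed at 0 in pellet 3, while supernatant 1 held 0.00775 RPM and supernatants 2 and 3 were listed at 0. The largest value stands for about 12.3 reads in pellet 2 and the value of supernatant 1 for about 0.0417 of a read. With floors of 3 counts at 0.558, 0.783 and 0.974 RPM in supernatants 1, 2 and 3, levels below these floors cannot be told from 0. mmu-miR-574-3p was at 0.288 and 7.11 RPM in pellets 1 and 2, was listed at 0 in pellet 3 and in supernatants 2 and 3, and stood at 0.00293 RPM in supernatant 1. No fold change is given for this arm.

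mmu-miR-5119 was analysed in the mouse mapping alone, in which it was at place 6 of each supernatant and at places 68, 36 and 47 of pellets 1, 2 and 3. Its level was 48.0, 86.8 and 26.6 RPM in pellets 1, 2 and 3, against 104, 86.2 and 92.0 RPM in supernatants 1, 2 and 3. The 3 supernatants were close to each other, and pellet 2 reached just above supernatant 2, so the fractions overlapped by this 1 library. The mean was 53.8 ± 30.5 RPM in the pellets, against 94.1 ± 9.16 RPM in the supernatants (SD, n = 3 each), with a log2 difference of -0.95 (-1.36 without pellet 2 and -0.53 without pellet 3). Pellet 3 rested on about 25.4 reads. As a share of the mouse miRNA reads it took 0.0350%, 0.105% and 0.0357% in the pellets, against 0.193%, 0.205% and 0.228% in the supernatants. On this scale all pellets lay below all supernatants, as in 5.59% of the mouse miRNAs, and the mean share was 0.281 times as high in the pellets.

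Against all miRNAs, miR-1246, miR-574-5p and mmu-miR-5119 lay near the supernatant end, for which they were chosen, while miR-423-5p lay between them and the median and miR-423-3p above the median. Per mapped read the median log2 difference was 2.05 over the 153 human and 2.12 over the 143 mouse miRNAs that passed the filter. Relative to that median, hsa-miR-574-5p stood at -2.79, hsa-miR-1246 at -2.62, hsa-miR-423-5p at -1.48 and hsa-miR-423-3p at 1.17. In the mouse mapping, mmu-miR-5119 stood at -3.07, mmu-miR-574-5p at -2.87, mmu-miR-423-5p at -1.49 and mmu-miR-423-3p at 1.32. Mean levels lower in the pellets were found for 4.58% of the human miRNAs and 5.59% of the mouse miRNAs, miR-1246, miR-574-5p and mmu-miR-5119 among them. By limma 47.7% of the human miRNAs and 55.9% of the mouse miRNAs passed as higher in the pellets, and 0% as lower (0 at an unadjusted p under 0.05). Without supernatant 1 or without supernatant 2, limma called 0 in either mapping (67 and 61 human and 65 and 60 mouse miRNAs were higher before adjustment, at p under 0.05). Without supernatant 3 it called 31 human and 26 mouse miRNAs. Without pellet 1 it called 50 mouse miRNAs, against 80 with all libraries. For comparison, miR-122-5p stood at -1.22, miR-148a-3p at -0.31 and let-7b-5p at -1.14 relative to the human median, so hsa-miR-423-5p lay nearer to miR-122-5p and let-7b-5p than to miR-1246.

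**Figure D4:**
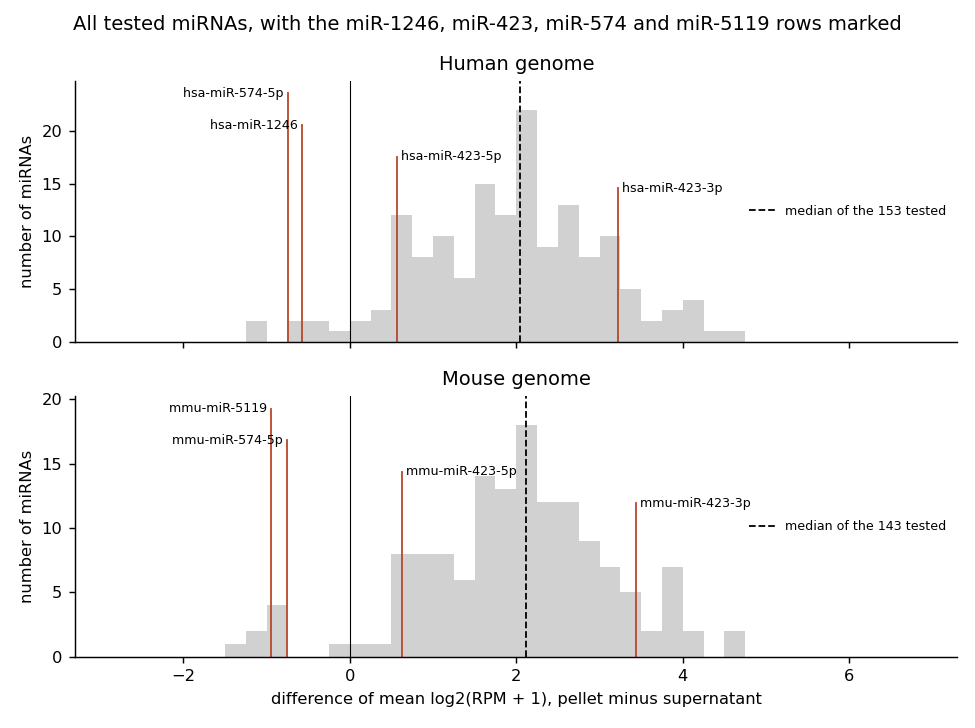
Histogram of the difference of mean log2(RPM + 1), pellet minus supernatant, over the 153 human (top) and 143 mouse miRNAs (bottom), with the members as red lines and the median as a dashed line. The medians stand at 2.05 and 2.12, hsa-miR-1246 (-0.57), both miR-574-5p rows (-0.75 each) and mmu-miR-5119 (-0.95) lie below 0, and both miR-423-3p rows lie above the median.

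Next to these names at the supernatant end stood few others of at least 10 RPM in a fraction. In the human mapping, miR-204-3p had the lowest log2 difference of 107 such miRNAs, at -1.08, with a mean of 17.9 RPM in the pellets, against 28.3 RPM in the supernatants. It was followed by miR-574-5p, miR-1246, miR-208b-3p (0.54) and miR-423-5p. In the mouse mapping, mmu-miR-5108 (-1.32) and mmu-miR-204-3p (-1.01) came before mmu-miR-5119 and mmu-miR-574-5p, and mmu-miR-208b-3p (0.59) came next, of 99 such miRNAs. miR-208b is encoded in a gene of cardiac myosin. Among miRNAs of at least 10 RPM in a fraction, none lay between -0.57 and 0.54 (human mapping) or between -0.75 and 0.59 (mouse mapping). This gap depends on the 10 RPM cut. Rarer miRNAs that passed the filter lay inside it, such as hsa-miR-658 (-0.32), hsa-miR-320d (0.35) and mmu-miR-130b-3p (-0.24).

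The mouse names with numbers near that of miR-5119 lay on the same side where they passed the filter. Of 8 listed names from miR-5097 to miR-5136, 5 passed the filter, miR-5119 among them. The other 4 had a lower mean log2 level in the pellets, as had 5.59% of all mouse miRNAs, and their median log2 difference was -0.99, beside 2.12 over all mouse miRNAs. That share is mostly made up of these names, since 5 of the 8 mouse miRNAs with a lower mean belong to this list. By limma 0 of the 5 passed (0 at an unadjusted p under 0.05). mmu-miR-5108 was at 7.44, 4.88 and 2.27 RPM in pellets 1, 2 and 3, against 14.4, 10.4 and 13.5 RPM in supernatants 1, 2 and 3, without overlap. mmu-miR-5112 was at 3.89, 5.49 and 3.39 RPM in the pellets, against 11.0, 6.16 and 6.68 RPM in the supernatants, also without overlap. The RPM of mouse miRNAs were lower in the pellets without overlap in 1.4% of the 143, which are these 2 names themselves. mmu-miR-5124a and mmu-miR-5106 had log2 differences of -1.20 and -0.79 and overlapped. At a few RPM each, these names rest on few reads in pellet 3. A shared range of numbers does not show a shared origin, and sequences were not compared.

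Among human names known to overlap other RNAs (snRNA, snoRNA, tRNA, rRNA or repeats), miR-1246 stood alone. Of 10 listed names of this kind only miR-1246 passed the filter, and the other names, such as the tRNA-like miR-1260a and the snoRNA-derived miR-1291 and miR-664a-3p, stayed below 3 RPM in each library. miR-1260a was at 2.93, 0 and 1.42 RPM in pellets 1, 2 and 3 and at 0, 0 and 0.153 RPM in supernatants 1, 2 and 3. miR-1291 reached 1.15 RPM in pellet 3, which is 1 read. In the mouse mapping 1 name of this list, mmu-miR-5100, was listed, and it did not pass the filter.

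The pellets varied more than the supernatants, for these members as for miRNAs in general. The SD of log2(RPM + 1) was 0.69 among the pellets and 0.19 among the supernatants for hsa-miR-1246. It was 0.42 among the pellets and 0.10 among the supernatants for hsa-miR-423-5p. It was 0.99 among the pellets and 0.30 among the supernatants for hsa-miR-574-5p, and 0.83 among the pellets and 0.14 among the supernatants for mmu-miR-5119. The median SD of the human miRNAs of at least 10 RPM was 1.07 among the pellets (107 miRNAs) and 0.30 among the supernatants (48 miRNAs). Counted from the smallest SD, hsa-miR-423-5p was thus at place 11 of 107 in the pellets and at place 4 of 48 in the supernatants.

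Over the 6 libraries the members were most like different miRNAs. The correlations hold the difference between the fractions, by which the members were chosen, so they are no separate evidence of a grouping. Given as a description over libraries that share depth and scaling, the miRNA most like hsa-miR-1246 was hsa-miR-574-5p (Pearson r of log2(RPM + 1) = 0.62), followed by miR-450a-5p (0.58) and miR-494-3p (0.48). hsa-miR-574-5p in turn was most like miR-1246, then like miR-450a-5p (0.50) and miR-10a-5p (0.31). mmu-miR-5119 was most like mmu-miR-574-5p (r = 0.95) and mmu-miR-5108 (0.82), with mmu-miR-450a-5p at 0.44. hsa-miR-423-5p followed other miRNAs instead, namely miR-148a-3p (r = 0.98), miR-125b-5p (0.98) and miR-10a-5p (0.97), each of which was higher in the pellets. mmu-miR-423-5p was likewise most like mmu-miR-148a-3p (0.99), mmu-miR-1a-3p (0.98) and mmu-miR-10a-5p (0.97). Pellet 2 was the highest pellet for miR-423-5p, miR-574-5p and miR-5119, but not for miR-1246 or miR-423-3p, for which pellet 1 was the highest.

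Because the same reads were mapped to both genomes, the rows of a shared name show how far the human and the mouse annotation count the same RNA. hsa-miR-423-5p stood above mmu-miR-423-5p in RPM in 6 of 6 libraries, by a mean log2 difference of 0.13 ± 0.037 (SD, n = 6, exact two-sided sign-flip permutation test, adjusted p = 0.0357). In estimated reads, however, the human row was 0.992, 1.002 and 0.972 times the mouse row in pellets 1, 2 and 3, and 0.990, 0.995 and 0.998 times in supernatants 1, 2 and 3. Nearly equal numbers of reads were thus divided by more mapped reads for the mouse than for the human genome in each library. The mapped totals set the direction in RPM, so that test says little about the miRNA itself. In reads the direction of this difference turned (log2 difference -0.012, adjusted p = 0.0714, same exact test, n = 6).

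miR-423-3p and miR-574-5p differed between the genomes in reads as well. hsa-miR-423-3p exceeded mmu-miR-423-3p in 6 of 6 libraries, by 0.53 ± 0.24 on the log2 scale of RPM (SD, n = 6, same exact test, adjusted p = 0.0357), and in estimated reads it was 1.03 to 1.59 times as high in the pellets, against 1.27 to 1.63 times as high in the supernatants. hsa-miR-574-5p stood below mmu-miR-574-5p in 6 of 6 libraries, with a log2 difference of -0.16 ± 0.058 (SD, n = 6, same exact test, adjusted p = 0.0357). In estimated reads it was 0.800 to 0.854 times the mouse row in the pellets, against 0.781 to 0.810 times in the supernatants. The miR-574-3p rows could not be compared in this way, because both are listed at 0 in 3 of the 6 libraries. The p-values were adjusted over the 8 differences of arms and mappings computed, and 0.0312 is the smallest unadjusted p that 6 libraries allow. The 8 include the arm differences of miR-423 and miR-574, which are not read as tests here. Their place among the 8 makes the adjusted p-values of the mapping differences smaller than over the mappings alone. A pellet and a supernatant may stem from the same serum, in which case the 6 libraries are not independent and the p-values are too small.

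**Figure D5:**
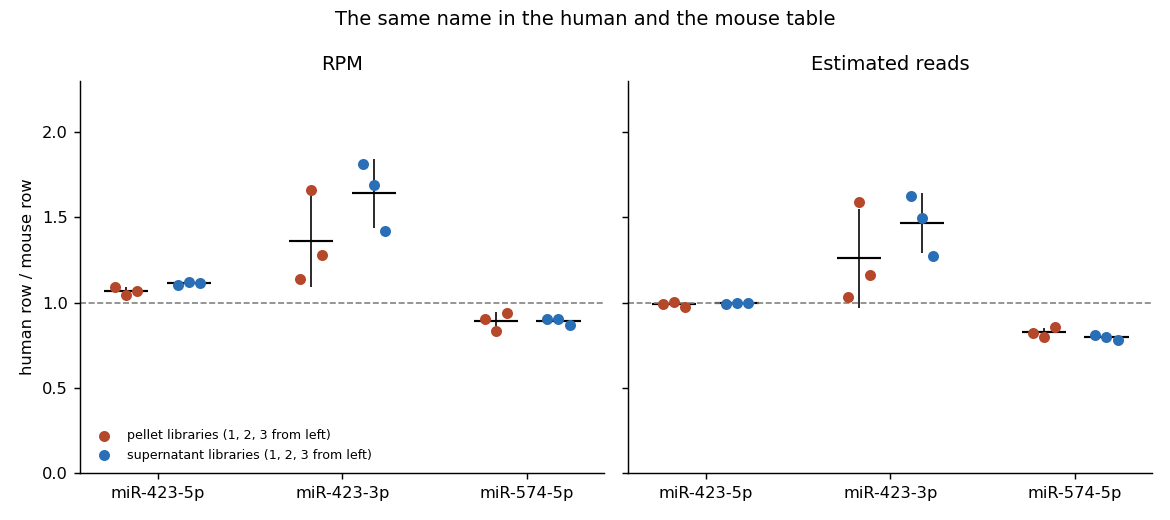
Human row divided by mouse row of the same name in each library, in RPM (left panel) and in estimated reads (right panel), with pellets left of supernatants and mean and SD (n = 3). In reads miR-423-5p lies between 0.972 and 1.002, miR-423-3p lies above 1 and miR-574-5p lies between 0.781 and 0.854.

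Together the 5 human rows took 14.3%, 18.5% and 11.9% of the listed miRNA reads in pellets 1, 2 and 3, against 26.7%, 35.7% and 36.1% in supernatants 1, 2 and 3. Nearly all of this was miR-1246. The 5 mouse rows took 0.602%, 1.29% and 0.777% in the pellets, against 1.07%, 1.19% and 1.24% in the supernatants, with pellet 2 above all supernatants. Mapped to the mouse genome, these names were therefore a small part of the miRNA profile of FBS, of which miR-122-5p held 88.9% ± 3.04 in the pellets, against 94.9% ± 0.870 in the supernatants (SD, n = 3 each).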

How the data were processed

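The authors deposited RPM values (reads per 1000000 mapped reads) per RNA class and per miRNA for 3 pellets and 3 supernatants, mapped to hg19 with exceRpt V2.2.8 and to mm10 by a pipeline not given in the sources used here. Inserts of 15 to 65 nt from PNK-treated RNA were read for 50 nt. Members and lists were chosen with earlier results of these data known. Each miRNA table was fitted by limma 3.58.1 (R 4.3.3) on log2(RPM + 1), pellets against supernatants, with a variance trend, no covariate and Benjamini-Hochberg adjustment at 0.05, for background only. Log2 differences on this scale understate changes of rare miRNAs. The limma fit was tested on simulated data with raised levels and an equal spread in both fractions, which these libraries do not have. Mapping differences were tested by enumerating the 64 sign flips over 6 libraries (Python 3.11.15, numpy 2.4.6), and arm differences, computed in the same way, are given as a description. A read was taken as the smallest RPM value that 6 or more miRNAs of a library had in common (chosen after seeing the data), and floors of 3 counts cover counting error only. Named beside the members were 3 abundant miRNAs for comparison, the 3 miRNAs most alike in pattern, the 5 lowest differences, and 2 lists of related names. miR-1290, miR-1260a, miR-1291 and miR-664a-3p belong to the first list and were picked from it after their values were seen. Cattle gene names and neighbours come from RefSeq.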

Additional observations from a re-analysis of the deposited data

How the results depend on the processing

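The direction of miR-423-5p between fractions depends on what its reads are divided by. Its log2 difference, pellet minus supernatant, of 0.57 (human) and 0.62 (mouse) per mapped read became -0.067 and -0.44 when scaled to the listed miRNA reads, -1.59 and -1.53 when scaled to miRNA reads other than miR-122-5p and miR-1246, and -1.51 and -1.55 with median-of-ratios scaling. The last scaling lowers the median of all miRNAs to 0.35 and 0.34. In the same order of scalings, mmu-miR-5119 moved to -1.997, -3.06 and -3.09, hsa-miR-574-5p to -2.73 and -2.67 under the last 2, and hsa-miR-1246 to -1.21 with all miRNA reads and -2.66 with median-of-ratios. Leaving out 1 library gave -0.86 to -0.19 for hsa-miR-1246, 0.35 to 0.77 for hsa-miR-423-5p, -1.28 to -0.30 for hsa-miR-574-5p, 0.39 to 0.82 for mmu-miR-423-5p and -1.36 to -0.53 for mmu-miR-5119. miR-423-3p stayed above 0 in each alternative, but moved to 1.11 and 1.19 (human, 3.22 per mapped read) and to 1.38 and 1.36 (mouse, 3.44 per mapped read) under the last 2 scalings.

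Counts of miRNAs past the threshold, 73 human and 80 mouse, were 38 and 34 with a pseudocount of 10 RPM, 11 and 10 without the filter, 38 and 9 scaled to miRNA reads, 6 and 8 with median-of-ratios scaling, and between 0 and 97 (human) or 0 and 94 (mouse) without 1 library. Most of those called with median-of-ratios scaling were lower in the pellets, namely 5 human and 7 mouse miRNAs, against 1 higher in each mapping. Scaled to miRNA reads, 1 human miRNA passed as lower, and without pellet 2, 1 mouse miRNA did. With the replicate number as a block (replicate block) they were 78 and 73. Same-numbered libraries deviated together for numbers 2 and 3 (human r = 0.27 and 0.26) but not for number 1 (-0.19), so the numbers were not taken as pairs, and not every library correlated best with its own number.

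With 5 libraries the sign-flip test cannot give a p below 0.0625, so no mapping difference can pass without 1 library. The log2 arm differences then ranged from 3.23 to 3.94 (hsa-miR-423), 2.94 to 3.57 (hsa-miR-574), 3.62 to 4.42 (mmu-miR-423) and 3.24 to 3.82 (mmu-miR-574, for which, as for hsa-miR-574, the size follows the pseudocount), and the mapping differences from 0.12 to 0.14 (miR-423-5p), 0.48 to 0.60 (miR-423-3p) and -0.17 to -0.14 (miR-574-5p). As shares of miRNA reads, those of miR-423-5p (0.049) and miR-574-5p (-0.23) did not pass, and in estimated reads, an alternative chosen after seeing the data, miR-423-5p turned to -0.012. The causes were not tested, except that the mapped reads differ between the genomes as given.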
